A study of Mus musculus with 19 samples.

Results

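The Th1 axis was followed here through 9 genes of mouse T helper cells: the transcription factor genes Tbx21, Eomes and Hlx, the cytokine gene Ifng, its receptor genes Ifngr1 and Ifngr2, the interleukin 12 (IL-12) receptor genes Il12rb1 and Il12rb2, and Stat4. They were picked by symbol from the 22878 gene symbols of the RNA tables. All 9 were found, and each was represented by its transcript with the most reads over the 16 RNA libraries. All cultures were Th2 cells, meaning CD4 T cells driven towards production of interleukins 4, 5 and 13. In the Bcl11b experiment, naive CD4 T cells of Bcl11bfl/fl-CreERT2 mice were used, in which the compound 4-OHT activates Cre and deletes the floxed gene. Early cells were cultured towards Th2 for 4 days. Late cells had the same 4 days, then rested for 1 day in medium with IL-2, and had another 4 days of Th2 culture. Knockout (KO) cultures were given 4-OHT in the first of these periods (early) or in the last (late). Wild-type (WT) cultures carried the same floxed allele and CreERT2 without 4-OHT, so deletion and compound cannot be told apart. The Gata3 experiment had the same 4 kinds of groups (early WT, early KO, late WT, late KO), for which the labels give neither the mice nor the deletion method nor the culture times. Every group had 2 RNA libraries. The labels do not say whether these came from separate animals or cultures, so p-values measure only the spread between libraries. Binding of Bcl11b and of GATA3 was measured by chromatin immunoprecipitation in late WT Th2 cells, with 1 library for each antibody and 1 input library.

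In the Th1 pathway, IL-12 from antigen-presenting cells binds a receptor made of the Il12rb1 and Il12rb2 chains, and the receptor activates Stat4. Stat4 and the T-box factor T-bet (Tbx21) drive Ifng, which encodes interferon gamma (IFN-gamma), the signature cytokine of Th1 cells. Eomes is a second T-box factor, best known from CD8 T cells and NK cells, and Hlx is a homeobox factor that acts with T-bet. IFN-gamma signals through a receptor made of Ifngr1 and Ifngr2. Th2 cells keep this programme low, and GATA3, the factor that directs Th2 differentiation, is known to restrain Stat4 and Il12rb2.

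The promoters of 4 members are shown, without that of Eomes, which had the widest change. Those of Tbx21 and Ifngr2 were taken for a peak and those of Ifng and Il12rb2 for wide changes. They are the 250 bases before the RefSeq start (build GRCm38.p6), 5′ to 3′ on the gene's strand, and capitals mark motif letters found by search on both strands. In Tbx21 and Ifngr2 a Bcl11b peak overlapped the window. Ifng and Il12rb2 had no peak there.
Ifng (chr10:118440796-118441045, plus strand): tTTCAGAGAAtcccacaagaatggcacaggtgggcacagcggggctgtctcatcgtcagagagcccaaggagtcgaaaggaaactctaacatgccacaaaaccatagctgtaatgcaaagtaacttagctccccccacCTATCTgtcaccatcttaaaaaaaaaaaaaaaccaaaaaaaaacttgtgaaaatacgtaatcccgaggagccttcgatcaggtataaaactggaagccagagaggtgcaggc
Il12rb2 (chr6:67376189-67376438, minus strand): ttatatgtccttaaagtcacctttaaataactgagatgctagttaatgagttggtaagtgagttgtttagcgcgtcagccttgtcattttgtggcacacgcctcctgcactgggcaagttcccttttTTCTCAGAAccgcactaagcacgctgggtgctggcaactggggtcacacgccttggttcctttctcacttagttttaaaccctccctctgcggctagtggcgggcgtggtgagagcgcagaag
Tbx21 (chr11:97115332-97115581, minus strand): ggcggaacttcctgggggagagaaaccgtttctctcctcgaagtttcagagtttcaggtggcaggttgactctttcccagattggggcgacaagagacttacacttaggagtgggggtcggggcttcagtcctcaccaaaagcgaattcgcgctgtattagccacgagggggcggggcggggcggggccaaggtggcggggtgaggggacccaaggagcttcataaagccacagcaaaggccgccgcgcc
Ifngr2 (chr16:91546809-91547058, plus strand): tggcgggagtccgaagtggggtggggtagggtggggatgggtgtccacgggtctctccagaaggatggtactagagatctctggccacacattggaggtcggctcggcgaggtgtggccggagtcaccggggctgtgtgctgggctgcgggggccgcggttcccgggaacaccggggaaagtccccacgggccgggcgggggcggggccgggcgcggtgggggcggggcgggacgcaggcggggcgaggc

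The capitals in the Ifng promoter are a STAT motif, spelled TTCNNNGAA, at the far end of the window and a GATA motif 112 bases before the start. The GATA search took AGATAA and AGATAG as well as TGATAA and, in the same way, TGATAG. The Il12rb2 promoter held a STAT motif 123 bases before the start. The Tbx21 and Ifngr2 windows matched neither of these motifs nor the T-box motif GGTGTGA. Of 32851 RefSeq promoters of this length, 26.5% held a GATA match, 7.02% a STAT match and 3.33% a T-box match, so a GATA match in a window is common. Of the 9 members, 8 were in the promoter table, and Il12rb1 was not. Among the promoters not shown, those of Eomes, Hlx and Ifngr1 matched none of these motifs. For Stat4, the window at the inner start held a GATA motif 163 bases before that start, and the window at the outer start held no match.

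Libraries of the Bcl11b experiment held 4687552 to 14577958 reads assigned to genes, and those of the Gata3 experiment 5117526 to 9892746. In the Bcl11b experiment both early WT libraries differed from the rest. They held 3.79 and 4.89 reads per kb over odorant and vomeronasal receptor transcripts, which T cells are not expected to express, against at most 0.51 in the other libraries. In the Gata3 experiment, early and late WT libraries with the same number differed from each other by a chi-square per degree of freedom of 4.26 and 2.52, less than replicates of 1 WT group did (12.8 early, 13.5 late). The labels do not say whether early and late WT came from separate cultures. The targeted genes were checked first. Bcl11b had 106 CPM in both early WT libraries and 66.4 and 53.9 CPM in early KO, and 147 and 188 CPM in late WT against 75.8 and 133 CPM in late KO. Gata3 had 1201 and 1306 CPM in early WT and 438 and 429.5 CPM in early KO of its experiment, and 1404 and 1354 CPM in late WT against 1093 and 966 CPM in late KO. Whole-transcript counts do not show which exons were deleted. The T helper markers Cd3d, Cd3e, Cd3g and Cd4 were detected in every group, with summed levels from 1585 to 5877 CPM. These levels were higher in Bcl11b KO than in WT, at 4022 and 3574 against 2087 and 1585 CPM early and 5877 and 5181 against 2986 and 3166 CPM late. Cd4 (1.44 ± 0.18 early, 1.401 ± 0.17 late) and Cd3g (0.91 ± 0.17 and 0.90 ± 0.16) rose there, and their part in the Bcl11b KO changes was not tested.

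Levels are given as CPM, gene counts scaled to a common library depth with TMM over the 16 libraries. A change was called where edgeR's quasi-likelihood test, adjusted over all genes tested in the experiment with the Benjamini-Hochberg method, gave an adjusted p under 0.05. Fold changes are log2 values with their standard error (SE). In these bulk samples, fewer cells of a type and less RNA per cell cannot be told apart. The plot of levels by library gives all 9 genes.

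**Figure D1:**
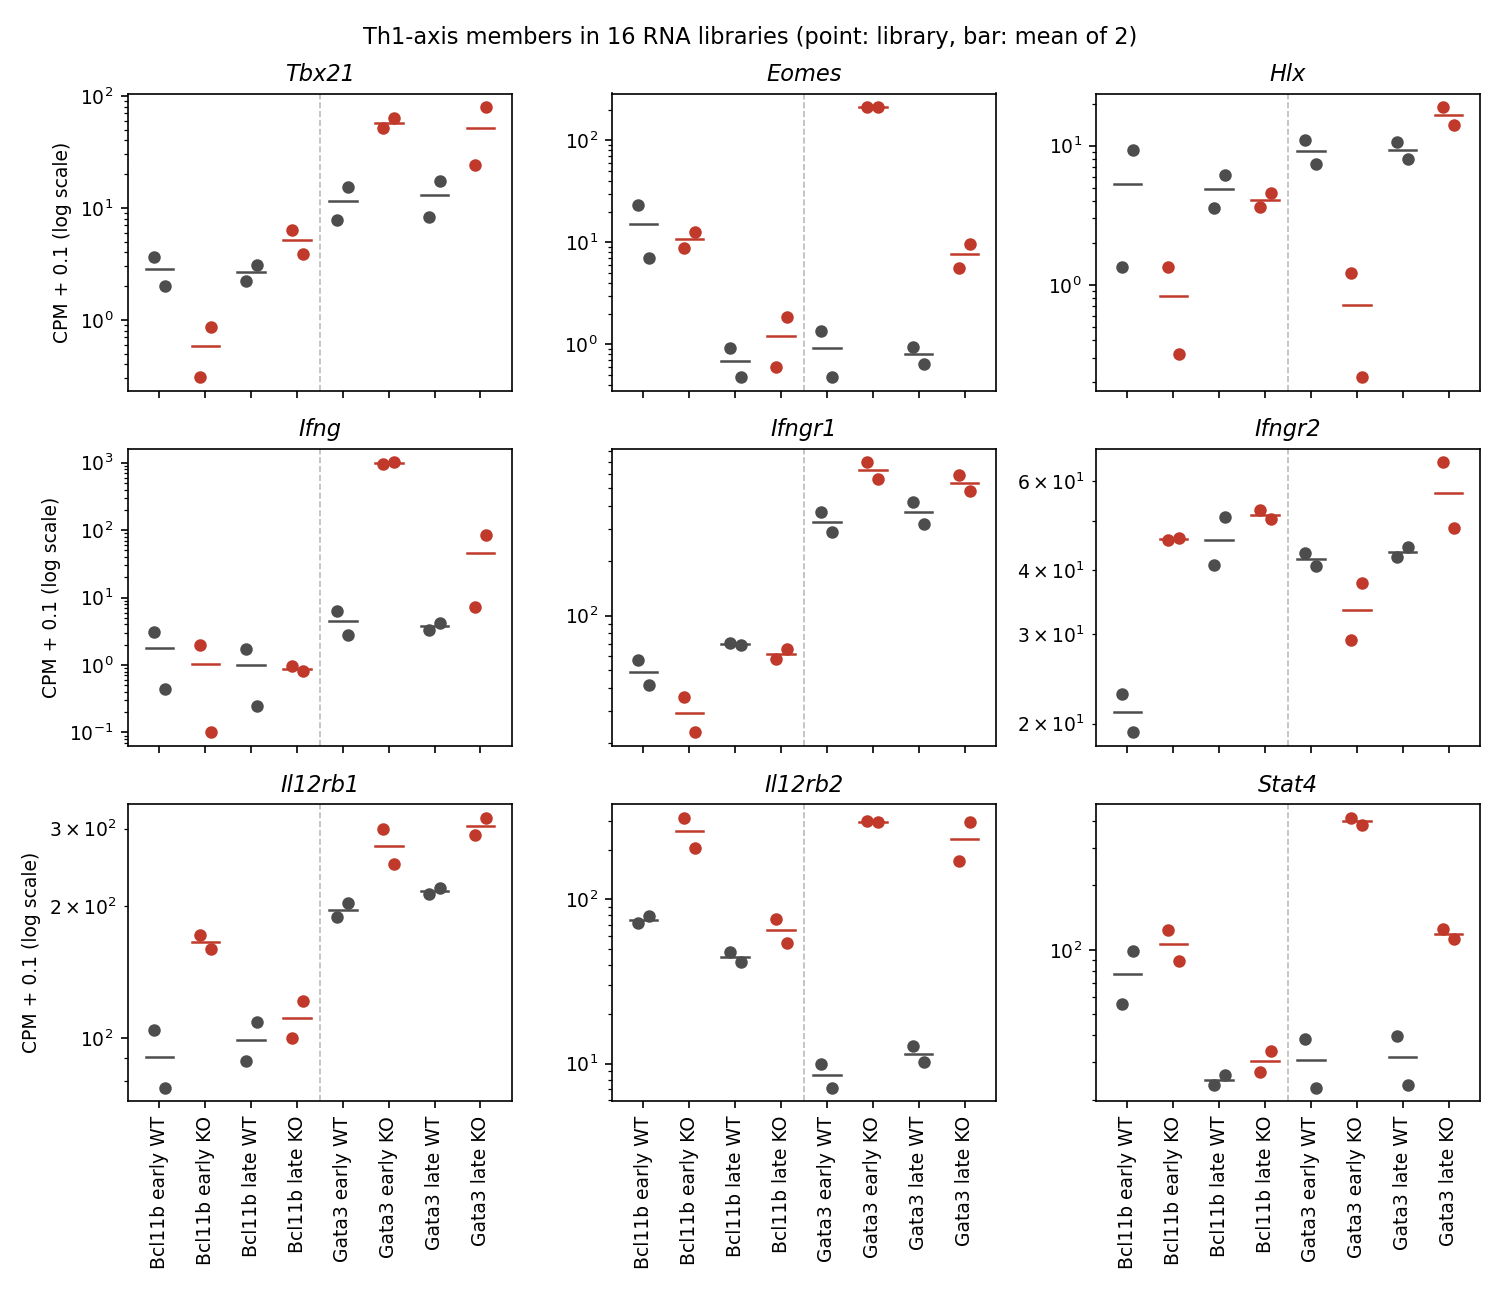
Level of each of the 9 genes in the 16 RNA libraries (CPM + 0.1, log axis; grey WT, red KO; points are libraries and bars the mean of the 2 libraries of a group; the dashed line parts the Bcl11b from the Gata3 experiment). Ifng and Eomes stand highest in the 2 early Gata3 KO libraries. Hlx is low there, with a range that overlaps that of early Bcl11b KO.

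Loss of Gata3 in early cultures changed 8 of the 9 genes: 7 rose and 1, Hlx, fell. Over all 10601 genes tested, 14.0% rose and 16.8% fell. The median log2 fold change was 2.30 over the 9 genes and -0.0025 over all genes tested. The passage of Eomes through the filter on low values rested on KO libraries alone, so for that gene the filter favoured a difference.

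Among the transcription factors, Tbx21 had 7.74 and 15.2 CPM in early Gata3 WT and 52.0 and 62.7 CPM in early KO. Both KO libraries lay above both WT libraries, and the difference was 2.30 ± 0.53 on the log2 scale (adjusted p = 0.00854), or 4.93-fold. Without early WT replicate 1 it was 1.91, with an adjusted p of 0.057. Eomes had 1.24 and 0.384 CPM in WT, which were 9 and 3 reads, and 210.3 and 212 CPM in KO. The 2 KO libraries were nearly equal and far above WT, with a log2 change of 8.01 ± 0.32 (adjusted p = 2.9e-07). The low WT reads limit this value, which was 9.05 without early WT replicate 1 and 7.38 without early WT replicate 2. Hlx went the other way. It had 10.9 and 7.29 CPM in WT (79 and 57 reads) and 1.12 and 0.117 CPM in KO (10 reads and 1 read). It fell by 3.83 ± 0.55 (adjusted p = 0.000474), and the change was -6.11 without early KO replicate 1 and -3.01 without early KO replicate 2.

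Ifng itself rose from 6.22 and 2.69 CPM (45 and 21 reads) in early Gata3 WT to 959 and 1016 CPM (8596 and 8664 reads) in early KO. The groups did not overlap, and the change was 7.79 ± 0.92 (adjusted p = 0.00013), or 222-fold. It was 8.51 without early WT replicate 1. Per kb of transcript, Ifng stood at 794 and 841 CPM in early KO, above each of the other 8 genes there, of which Ifngr1 came next with 332 and 267 CPM per kb.

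The IL-12 receptor chains differed from each other. Il12rb2, the chain that limits IL-12 responses, had 9.81 and 7.03 CPM in early Gata3 WT and 298 and 297 CPM in early KO, a change of 5.14 ± 0.29 (adjusted p = 1.09e-06). Il12rb1, the chain shared with the IL-23 receptor, had 189 and 203 CPM in WT and 299 and 249 CPM in KO. Its change was small, 0.47 ± 0.12 (adjusted p = 0.0128), and was not called without early WT replicate 1 (adjusted p = 0.0808) or without early KO replicate 1 (adjusted p = 0.12). Per kb of transcript, Il12rb2 lay at 3.33 and 2.39 CPM against 65.7 and 70.7 CPM for Il12rb1 in early WT. In early KO the levels per kb were 101 and 101 CPM for Il12rb2 and 104 and 86.6 CPM for Il12rb1, so the ranges of the 2 chains overlapped there. Stat4, which relays the IL-12 signal, had 38.3 and 22.6 CPM in WT and 414 and 382 CPM in KO. It rose by 3.70 ± 0.28 (adjusted p = 6.7e-06).

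The receptor for IFN-gamma moved less. Ifngr1, the ligand-binding chain, had 370.5 and 286 CPM in early Gata3 WT and 697 and 561 CPM in early KO, a rise of 0.93 ± 0.19 (adjusted p = 0.00401). Ifngr2, the second signalling chain, had 43.1 and 40.8 CPM in WT and 29.1 and 37.6 CPM in KO. Both KO libraries lay lower, but the difference of -0.34 ± 0.18 did not pass the test (adjusted p = 0.186).

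**Figure D2:**
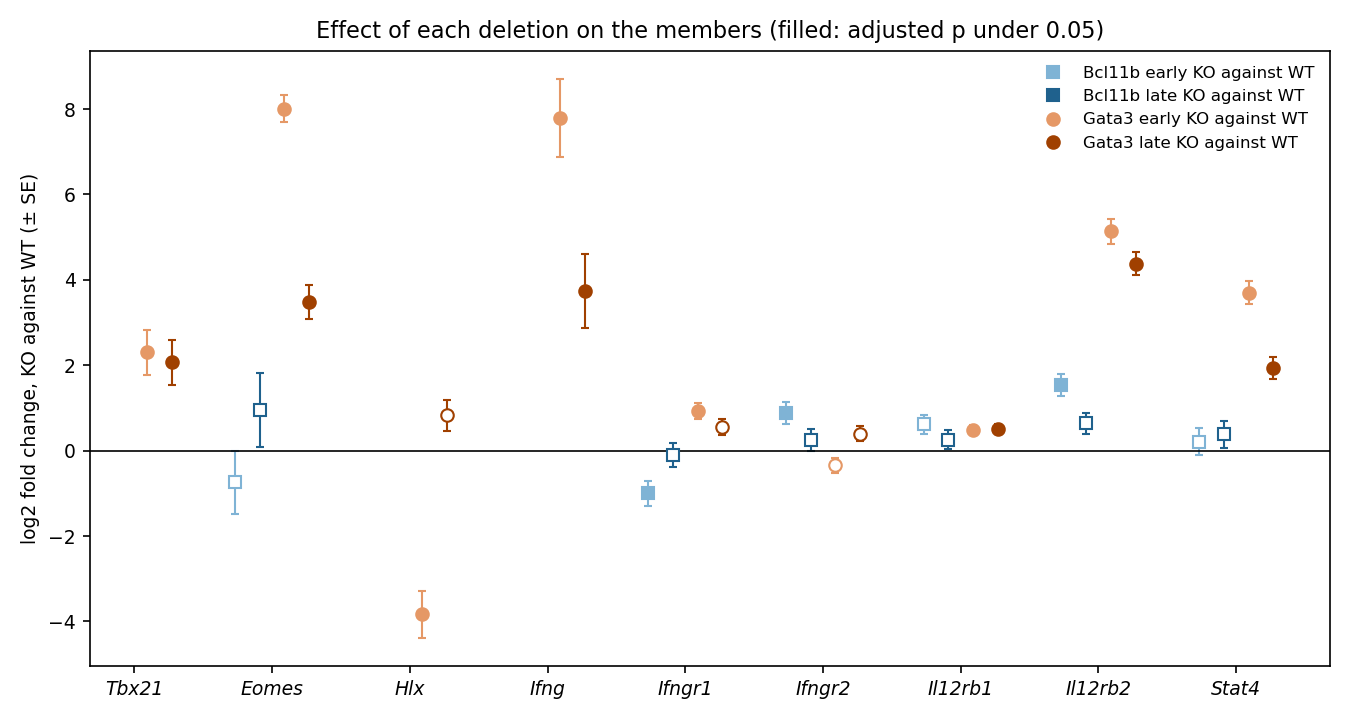
Log2 fold change with its standard error for KO against WT in the 4 comparisons (squares Bcl11b, circles Gata3; pale early, dark late; filled symbols have an adjusted p under 0.05). Tbx21, Hlx and Ifng have no square because they did not pass the filter on low values in the Bcl11b experiment. Eomes and Ifng show the largest rises (8.01 and 7.79, early Gata3 KO), and Hlx the only fall in the Gata3 experiment with a filled symbol (-3.83).

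In late Gata3 KO cultures 6 of the 9 genes rose and none fell, against 8.44% of all genes tested that rose and 5.59% that fell. The median log2 fold change was 1.93 over the 9 genes and 0.0044 over all genes. The genes that rose did so to different degrees. Il12rb2 was still high, with 170.1 and 297 CPM in late KO and 12.7 and 10.1 CPM in late WT (4.38 ± 0.27, adjusted p = 1.41e-05). Stat4 and Eomes rose by less than in early cultures. Stat4 had 125 and 112 CPM in late KO and 39.6 and 23.2 CPM in late WT (1.93 ± 0.26, adjusted p = 0.00115). Eomes had 5.50 and 9.55 CPM (28 and 93 reads) in late KO and 0.851 and 0.547 CPM in late WT (3.48 ± 0.41, adjusted p = 0.000478). For each of these 3 genes both KO libraries lay above both WT libraries, an order whose share over all genes was not counted.

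For Ifng and Tbx21 the 2 late KO libraries differed widely. Ifng had 7.06 CPM (36 reads) in late KO replicate 1 and 85.7 CPM (834 reads) in replicate 2, against 3.19 and 4.155 CPM in late WT. Tbx21 had 23.9 and 79.3 CPM in the same 2 libraries, against 8.19 and 17.4 CPM in WT. Over both libraries Ifng rose by 3.74 ± 0.87 (adjusted p = 0.0191) and Tbx21 by 2.06 ± 0.52 (adjusted p = 0.0263). Without late KO replicate 2 the changes were 0.97 for Ifng (adjusted p = 0.182) and 0.93 for Tbx21 (adjusted p = 0.225). The Ifng call was also lost without late WT replicate 1 (adjusted p = 0.0963) or late WT replicate 2 (adjusted p = 0.0821). The Tbx21 call was also lost without late WT replicate 1 (adjusted p = 0.141), early KO replicate 1 (adjusted p = 0.0507) or early KO replicate 2 (adjusted p = 0.0508). DESeq2 did not call Tbx21 (adjusted p = 0.0515), and limma on log2(RPKM + 1) called neither Tbx21 (adjusted p = 0.0818) nor Ifng (adjusted p = 0.123). Of the 9 genes, limma called 4 in late KO, against 6 by edgeR. Late KO replicate 2 was also the higher of the pair for Il12rb1, Il12rb2 and Eomes, and the lower for Hlx, Ifngr1, Ifngr2 and Stat4.

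Il12rb1 had 289.6 and 318 CPM in late Gata3 KO and 213 and 219 CPM in late WT, a change of 0.51 ± 0.12 (adjusted p = 0.0189). It was not called without late KO replicate 2 (adjusted p = 0.0735), late WT replicate 1 (adjusted p = 0.111) or late WT replicate 2 (adjusted p = 0.0891). Hlx had 18.8 and 13.97 CPM in late KO and 10.5 and 7.98 CPM in late WT (0.82 ± 0.37, adjusted p = 0.183). Ifngr1 had 593 and 485 CPM against 419 and 319 CPM (0.56 ± 0.19, adjusted p = 0.0777), and Ifngr2 had 65.2 and 48.4 CPM against 42.4 and 44.4 CPM (0.39 ± 0.17, adjusted p = 0.185). None of these 3 changes was called. Both KO libraries lay above both WT libraries in each, but the share of all genes with that order was not counted.

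The Gata3 transcript itself changed by -1.54 ± 0.11 in early and -0.41 ± 0.11 in late KO. By the same test these effects differed by 1.14 ± 0.16 (late minus early, adjusted p = 0.00148). Stage and degree of Gata3 loss therefore cannot be told apart. The effect of Gata3 loss differed between stages for 3 of the 9 genes, against 12.2% of all genes tested. This difference is the late effect minus the early effect. It was -4.53 ± 0.77 for Eomes (adjusted p = 0.00456), -1.77 ± 0.37 for Stat4 (adjusted p = 0.0126) and 4.66 ± 0.67 for Hlx (adjusted p = 0.00187). The Eomes difference was -4.19 without late WT replicate 1 (adjusted p = 0.0521), -5.58 without early WT replicate 1 and -3.90 without early WT replicate 2, and that of Stat4 was -1.71 without early KO replicate 1 (adjusted p = 0.0521). For Hlx it was 6.93 without early KO replicate 1 and 3.83 without early KO replicate 2. For Ifng the difference of -4.06 ± 1.34 did not pass the test (adjusted p = 0.0822). It was -6.83 without late KO replicate 2 (adjusted p = 0.000193) and -3.26 without late KO replicate 1 (adjusted p = 0.00305).

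Between stages within 1 genotype, none of the 9 genes changed in Gata3 WT, and 0% of all genes tested did. None of the 9 had an unadjusted p under 0.05 there (128 of all 10601 genes did), and DESeq2 and limma on log2 RPKM also called none of them. Same-numbered early and late WT libraries were more alike than replicates of 1 WT group (chi-square per degree of freedom 4.26 and 2.52 against 12.8 and 13.5). If they share a source, no test could show a stage change, so these tests cannot decide whether WT cells change with stage. In late against early Gata3 KO 5 genes changed, against 24.5% of all genes. Eomes fell by 4.71 ± 0.24 (adjusted p = 2.52e-06), Ifng by 4.32 ± 0.72 (adjusted p = 0.00211) and Stat4 by 1.72 ± 0.25 (adjusted p = 0.000922), and Hlx rose by 4.69 ± 0.53 (adjusted p = 0.000177). Ifngr2 rose by 0.78 ± 0.18 (adjusted p = 0.0105), and this was not called without early KO replicate 1 (adjusted p = 0.0941) or late KO replicate 1 (adjusted p = 0.0735). Ifng fell by 7.09 without late KO replicate 2, and Hlx rose by 6.96 without early KO replicate 1. Tbx21 (-0.09 ± 0.47) and Il12rb2 (-0.32 ± 0.22) did not pass the test, and Il12rb2 differed by -0.77 without late KO replicate 2 (adjusted p = 0.0133).

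The 2 T-box genes changed places between stages in Gata3 KO and in both genotypes of the Bcl11b experiment, but not in Gata3 WT. Per kb of transcript, Eomes lay above Tbx21 in both early Gata3 KO libraries (56.6 and 57.1 against 20.4 and 24.6 CPM). Tbx21 lay above Eomes in both late KO libraries (9.38 and 31.1 against 1.48 and 2.57 CPM) and in all 4 Gata3 WT libraries. In the Bcl11b experiment Eomes was above Tbx21 in all 4 early libraries (1.87 to 6.18 against 0.08 to 1.38 CPM per kb). There Tbx21 was above Eomes in all 4 late libraries (0.84 to 2.47 against 0.10 to 0.47 CPM per kb).

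In the Bcl11b experiment Ifng, Tbx21 and Hlx were low. Ifng had 17 and 2 reads in early WT, 18 and 0 reads in early KO, 22 and 2 reads in late WT, and 12 and 7 reads in late KO. The highest of these was 3.0 CPM, and the 0 allows up to 0.330 CPM (3 counts, counting error only). Tbx21 lay between 0.208 and 6.30 CPM and Hlx between 0.220 and 9.21 CPM. These 3 genes did not reach an RPKM of 1 in 2 libraries and were not tested, so 6 of the 9 were. Tbx21 had 88 and 37 reads (6.30 and 3.77 CPM) in late KO and 29 and 40 reads (2.14 and 3.01 CPM) in late WT, with no overlap in CPM. In the 2 early WT libraries of this experiment the receptor-transcript rate alone would give 9.7 and 12.5 reads over Tbx21, where 20 and 11 were counted.

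Early loss of Bcl11b changed 3 of the 6 genes tested: Il12rb2 and Ifngr2 rose and Ifngr1 fell. Of all 10873 genes tested, 11.0% rose and 10.1% fell. Il12rb2 had 71.3 and 79.0 CPM in early WT and 315 and 205 CPM in early KO, a rise of 1.53 ± 0.26 (adjusted p = 0.00275), 2.90-fold. Ifngr2 had 22.8 and 19.1 CPM in WT and 45.8 and 46.1 CPM in KO (0.88 ± 0.27, adjusted p = 0.0406). Ifngr1 had 56.5 and 41.3 CPM in WT and 35.6 and 22.6 CPM in KO (-1.001 ± 0.29, adjusted p = 0.0347). In each of the 3 the groups did not overlap, and the share of all genes without overlap was not counted. The summed level of Cd8a and Cd8b1 was 36.2 and 35.1 CPM in early WT and 99.1 and 82.8 CPM in early KO, and their part in these changes was not tested.

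The Il12rb2 call held without any 1 of the 8 libraries, with changes from 1.13 to 1.77. Those of Ifngr1 and Ifngr2 did not. The Ifngr1 call was lost without early WT replicate 1 (-0.77, adjusted p = 0.118), early KO replicate 2 (-0.76, adjusted p = 0.103), late WT replicate 1 (adjusted p = 0.0586), late WT replicate 2 (adjusted p = 0.0582), late KO replicate 1 (adjusted p = 0.0696) or late KO replicate 2 (adjusted p = 0.0706). The Ifngr2 call held only without early WT replicate 1, and without each of the other 7 libraries its adjusted p lay between 0.0773 and 0.103. Subtracting the receptor-transcript rate left Il12rb2 at 1.44 (adjusted p = 0.00591) and Ifngr1 at -1.09 (adjusted p = 0.0299), and put Ifngr2 at 0.86 (adjusted p = 0.0502). On deposited RPKM, scaled to totals in which gene reads were 20.7% and 16.9% for the early WT libraries and at least 40.7% for the others, the median of all genes moved by 0.86. On that scale Ifngr1 changed sign (0.10, adjusted p = 0.733), lying below the shift of all genes.

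The other early values in the Bcl11b experiment did not pass the test. Il12rb1 had 104 and 77.0 CPM in early WT and 172 and 159 CPM in early KO (0.62 ± 0.22, adjusted p = 0.0742). It was called without early WT replicate 1 (adjusted p = 0.0438). Stat4 had 55.6 and 98.7 CPM against 124 and 89.0 CPM (0.21 ± 0.31, adjusted p = 0.684). Eomes had 22.9 and 6.95 CPM against 8.74 and 12.4 CPM (-0.75 ± 0.74, adjusted p = 0.508). The WT and KO ranges of Stat4 and of Eomes overlapped.

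Bcl11b itself had 75.8 and 133 CPM in late KO against 147 and 188 CPM in late WT, and this difference was not called. These whole-transcript counts do not show how far Bcl11b was lost in late KO. After late loss of Bcl11b, none of the 6 genes tested was called by edgeR on all 8 libraries, by DESeq2 or by limma on log2 RPKM, against 1.69% of all genes that rose and 0.524% that fell. By edgeR 1 of the 6, Il12rb2, had an unadjusted p under 0.05, as did 1410 of all 10873 genes tested. Il12rb2 had 47.4 and 41.4 CPM in late WT and 75.9 and 54.2 CPM in late KO (0.64 ± 0.25, adjusted p = 0.286). The edgeR fit on only the 4 late libraries called it (0.65, adjusted p = 0.0326). Over all genes that fit called 948 rises and 634 falls, against 184 and 57 in the fit on all 8 libraries. The stage difference of the Bcl11b effect was called for none of the 6 genes (3.24% of all genes), and for none by DESeq2. By edgeR 2 of the 6 had an unadjusted p under 0.05 for it, as did 2095 of all 10873 genes. Limma on log2 RPKM called 4, where the median of all genes was itself shifted by -1.04.

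In the Bcl11b experiment Eomes, Stat4 and Il12rb2 were lower in late than in early cultures of both genotypes. In WT, 4 of 6 genes changed, against 41.7% of all genes. Eomes fell from 22.9 and 6.95 CPM to 0.812 and 0.377 CPM (-4.94 ± 0.90, adjusted p = 0.00161). Eomes passed the filter through 2 early libraries alone, so the filter favoured a fall with stage, and early WT replicate 2 held 40 reads where the receptor-transcript rate would give 18.2. Stat4 fell to 23.3 and 26.1 CPM (-1.97 ± 0.33, adjusted p = 0.000967) and Il12rb2 to 47.4 and 41.4 CPM (-1.09 ± 0.25, adjusted p = 0.00652). Ifngr2 rose to 40.9 and 50.8 CPM (0.80 ± 0.27, adjusted p = 0.0334). In KO, 4 of 6 genes changed, against 36.6% of all genes. Eomes fell by 3.24 ± 0.83 (adjusted p = 0.0122), Il12rb2 by 1.98 ± 0.26 (adjusted p = 0.000263) and Stat4 by 1.79 ± 0.32 (adjusted p = 0.0019), and Ifngr1 rose by 1.09 ± 0.29 (adjusted p = 0.0141). On deposited RPKM the WT changes were 0.33 for Il12rb2 and -0.38 for Stat4 (adjusted p = 0.202), with the median of all genes at 1.04.

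Several of these stage changes rested on single libraries. The KO change of Eomes was -2.56 without late KO replicate 1 (adjusted p = 0.12) and -4.37 without late KO replicate 2. The WT change of Eomes was -3.86 without early WT replicate 1, -5.57 without early WT replicate 2 and -5.60 without late WT replicate 1. The Il12rb2 call in WT was lost without late WT replicate 2 (adjusted p = 0.0523). Ifngr2 in WT was called only with early WT replicate 2, both late WT and both late KO libraries present (adjusted p from 0.0751 to 0.216 without any 1 of these 5). Ifngr1 in KO was not called without early KO replicate 2 (adjusted p = 0.055), late KO replicate 1 (adjusted p = 0.0549) or late KO replicate 2 (adjusted p = 0.108). B cell markers moved with stage as well. The summed level of the 5 B cell markers was 71.9 to 130 CPM in the 4 early libraries of this experiment, 4.59 and 5.46 CPM in late WT and 20.1 and 30.4 CPM in late KO. The summed level of Cd8a and Cd8b1 went from 36.2 and 35.1 CPM to 21.0 and 10.8 CPM in WT and from 99.1 and 82.8 CPM to 16.7 and 13.8 CPM in KO. Cd8a fell in both genotypes (-2.58 ± 0.56 and -3.95 ± 0.59) and Cd8b1 in KO (-1.43 ± 0.45). The part of these markers in the stage changes was not tested.

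Across the 8 groups, Ifng ranked early Gata3 KO (mean 987 CPM), late Gata3 KO (46.4), early Gata3 WT (4.45), late Gata3 WT (3.67) and then the 4 Bcl11b groups (0.787 to 1.67), where neighbours overlapped. For Eomes the order began with early Gata3 KO (211), early Bcl11b WT (14.9), early Bcl11b KO (10.6) and late Gata3 KO (7.52), and the first and the fourth of these were apart from the group next below. Il12rb2 was highest in early Gata3 KO (298), early Bcl11b KO (260) and late Gata3 KO (234), whose ranges overlapped, and lowest in late (11.4) and early (8.42) Gata3 WT. Ifngr1 separated the experiments, at 286 to 697 CPM in all 8 Gata3 libraries and 22.6 to 70.9 CPM in all 8 Bcl11b libraries. Experiment and any difference in culture or mice cannot be told apart in that gap.

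Other genes of the pathway showed which parts of it moved with the members. Of all genes tested, 14.0% rose and 16.8% fell in early Gata3 KO, and 8.44% rose and 5.59% fell in late KO. Among 18 tested IFN-gamma response genes, 16 rose and none fell in early Gata3 KO (median 1.75, all genes -0.0025), and 14 rose and none fell in late KO (median 0.76, all genes 0.0044). The early count included Psmb9, an immunoproteasome subunit (1.76 ± 0.13), Igtp, an immunity-related GTPase (2.67 ± 0.21), Irf8 (1.98 ± 0.15) and Nlrc5, the activator of MHC class I genes (2.13 ± 0.16). In late KO Gbp2, a guanylate-binding protein gene, rose by 2.54 ± 0.26 and Gbp5 by 2.14 ± 0.32. The late count was 8 without late WT replicate 1, and 12 rose and 1 fell without late KO replicate 2. Of all 10601 genes tested, the effect was lower in late than in early cultures on 474 and higher on 820. The effect on 11 of the 18 was lower in late than in early cultures, and on none was it higher. That count was 5 without either early KO library and 6 without late WT replicate 2. Many of these genes respond to type I interferon too.

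Of 13 tested Th1 effector and surface genes, 10 rose and 2 fell in early Gata3 KO (median 2.17, all genes -0.0025), where 14.0% of all genes rose and 16.8% fell. Fasl, a death ligand gene (6.60 ± 0.24), the chemokine gene Ccl5 (6.33 ± 0.42), the cytotoxic granule gene Nkg7 (5.06 ± 0.35) and Ly6c2 (4.96 ± 0.30) had the smallest p-values. In late KO 5 rose, among them Fasl (2.03 ± 0.24) and the cytokine gene Lta (2.00 ± 0.25), and 2 fell, among them Cd27 (-1.07 ± 0.19), against 8.44% and 5.59% of all genes. Without late KO replicate 1, 8 rose and 2 fell, and without late KO replicate 2, 4 rose and 4 fell.

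The signalling and transcription factor lists did not move one way, and their counts of 10 stand against the same shares of all genes. Of 10 Jak-Stat genes, 3 rose and 3 fell early, among them the feedback inhibitor Socs3 (-2.38 ± 0.19) and the kinase genes Jak2 (-1.44 ± 0.16) and Jak1 (0.58 ± 0.11). In late KO 2 rose, among them Socs1 (0.62 ± 0.11), and Socs3 fell (-1.32 ± 0.19). Without late WT replicate 1 only 1 of them rose. Of 10 other Th1 transcription factor genes, 4 rose and 4 fell early, led by Irf8, Irf1 (1.63 ± 0.15), Bhlhe40 (1.403 ± 0.13) and Batf (-2.33 ± 0.19). In late KO 3 rose and 2 fell, led by Bhlhe40 (1.78 ± 0.13), with 2 and 0 left without late KO replicate 2. Among 5 tested IL-12 family genes, Il18r1, a receptor chain for IL-18, rose early (1.81 ± 0.32) and late (2.67 ± 0.30). Ebi3, a subunit of IL-27, fell early (-0.97 ± 0.13) and rose late (1.62 ± 0.12). The Th2 cytokine genes Il5 and Il13 fell at both stages (-6.72 ± 0.41 and -6.93 ± 0.23 early, -7.29 ± 0.44 and -5.11 ± 0.20 late). Il4 fell early (-6.33 ± 0.32) and had 97.1 and 157 CPM in late KO against 183 and 257 CPM in late WT.

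Markers of other cells moved with Gata3 KO. The summed level of 6 markers of NK cells and innate lymphocytes was 122 and 87.6 CPM in early KO, against 2.76 and 0.767 CPM in early WT, 2.35 and 4.01 CPM in late KO and 2.34 and 0.984 CPM in late WT. Of the 6, Klrb1c, Klrd1 and Klrk1 were tested and rose. The sums were low outside early KO, so for these genes the filter on low values could favour a rise in early KO. In the 2 early WT libraries together Klrb1c had 1 read, Klrd1 3 reads and Klrk1 22 reads, and Klrk1 rose by 4.43 ± 0.55. Ncr1 and Klra8 had no read in the early KO libraries. In late KO Klrd1 rose as well (3.01 ± 0.80, adjusted p = 0.034). This call stood at low levels, with all 6 markers at 2.35 CPM in late KO replicate 1 and 2.34 CPM in late WT replicate 1. The summed level of Cd8a and Cd8b1 was 40.2 and 31.8 CPM in early KO and 11.7 and 8.57 CPM in early WT, and both genes rose. In late cultures it was 24.7 and 20.1 CPM in KO and 12.2 and 11.3 CPM in WT, and Cd8a rose (2.09 ± 0.34). The summed level of 7 macrophage and dendritic cell markers was 5.91 and 6.92 CPM in early KO and 34.8 and 19.4 CPM in early WT, and 18.1 and 14.4 CPM in late KO and 42.0 and 26.6 CPM in late WT. Of the 7 only Cd68 was tested, and it went the other way. It was not called early (0.26) and rose in late KO (0.93 ± 0.26, adjusted p = 0.0387). The part of these markers in the early and late rises of the 9 genes was not tested.

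In early Bcl11b KO, 8 of 18 IFN-gamma response genes rose and 1 fell, where Ifng had at most 18 reads. Among them were Irgm1 (2.51 ± 0.35) and Nlrc5 (1.95 ± 0.24). Of 13 Th1 effector genes 7 rose and 2 fell, among them Ccl5 (3.49 ± 0.32) and Havcr2 (2.45 ± 0.28). The other lists gave 2 rises and 0 falls of 10 Jak-Stat genes, 2 and 3 of 10 transcription factor genes and 1 and 0 of 5 IL-12 family genes, counts to be read against the 11.0% of all genes that rose and the 10.1% that fell. The reference of all these values is the pair of early WT libraries with many receptor-transcript reads. In late Bcl11b KO the 5 effector genes that rose included Ccl5 (3.92 ± 0.33), Ccl4 (4.40 ± 0.55) and Ccl3 (4.46 ± 0.63), and 1 IFN-gamma response gene rose, Igtp (1.17 ± 0.26). Of all genes tested, 1.69% rose in late Bcl11b KO. The effector count was 1 without late WT replicate 1, late WT replicate 2 or late KO replicate 1 and 2 without late KO replicate 2. The Igtp call was lost without any 1 of these 4 libraries or either early KO library. Il13 rose early (4.48 ± 0.29) with Il5 (3.13 ± 0.65).

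**Figure D3:**
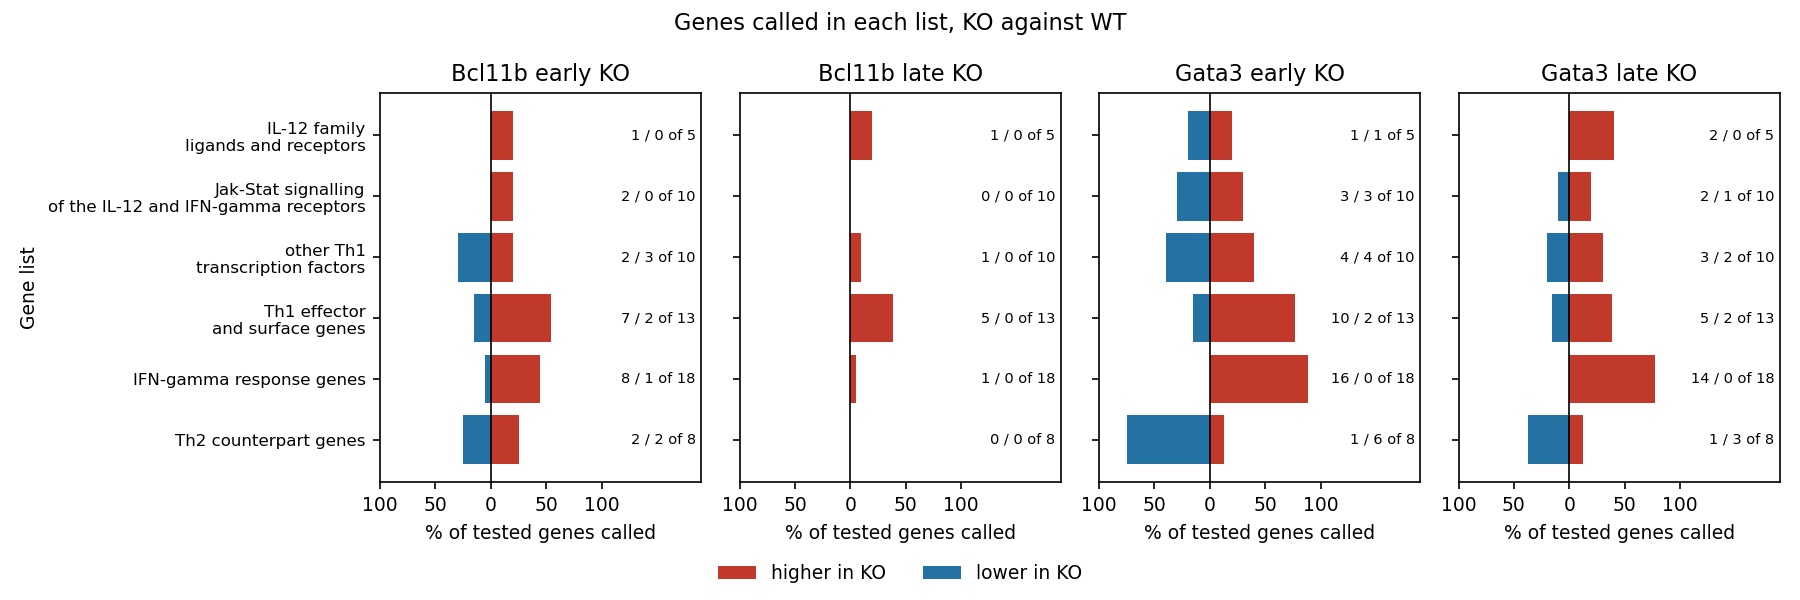
Share of the tested genes of each list that were called higher (red, right) or lower (blue, left) in KO, in the 4 KO comparisons, with the numbers higher, lower and tested beside each bar. IFN-gamma response genes stand at 16 of 18 higher in early and 14 of 18 in late Gata3 KO, where 14.0% and 8.44% of all genes tested rose. The signalling and transcription factor lists have bars on both sides in Gata3 KO.

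Peaks were assigned to the gene whose start the deposited lists give as closest, and fold enrichments are the authors' values, with no replicate. Bcl11b had 17 peaks at the 9 genes after 4 that overlapped an input peak were set apart, from 15262 in all. GATA3 had 29 at 6 of the genes after 2 were set apart, from 27199. Eomes, Il12rb1 and Hlx had no GATA3 peak assigned. Of these, 6 Bcl11b and 6 GATA3 peaks overlapped each other: 4 sites at Ifngr1, 1 at Ifng and 1 at Ifngr2. The shared peaks were 6 of the 17 and 6 of the 29, where 43.5% of all kept Bcl11b peaks and 25.8% of all kept GATA3 peaks were shared. Of the summits, 3 of 17 for Bcl11b and 2 of 29 for GATA3 lay within 1 kb of a start, against 28.0% and 9.2% of all kept peaks.

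The 10 GATA3 peaks at Il12rb2 ran from 55.7 kb upstream of its main start to within the gene. Of the 9945 genes with a GATA3 peak, 3.95% had as many. The highest fold enrichments there were 4.78 and 4.56, and 2 lay within 1 kb of the 2 starts that the lists use (1.58 at the inner and 2.51 at the outer start). At Tbx21 the strongest of 3 GATA3 peaks lay within the gene, 11.4 kb from the start (chr11:97103376-97104260), with a fold enrichment of 13.61, higher than 97.8% of GATA3 peaks. The Bcl11b peak over the Tbx21 promoter shown above had a fold enrichment of 2.01.

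At Ifng the 4 GATA3 peaks were distal. The strongest (chr10:118481388-118481863, 12.03-fold) lay 40.7 kb beyond the start, downstream of the gene, and the peak shared with Bcl11b (chr10:118477419-118478167) lay at 36.7 kb, with a fold enrichment of 6.37 for GATA3 and 5.16 for Bcl11b. The other 2 lay 21.7 kb upstream (1.88-fold) and 40 kb downstream (3.31-fold). Stat4 had GATA3 peaks 6.5 and 4.1 kb upstream (5.79 and 1.88) and 47.9 kb downstream (6.89) of the inner of its 2 RefSeq starts, all between the ends of its longer transcript. The only peak of Eomes was a Bcl11b peak 10.2 kb from its start, downstream of the gene, with a fold enrichment of 8.43, higher than 98.5% of Bcl11b peaks. Ifngr1 had its 4 shared sites 14.2 to 97.3 kb upstream, where the strongest GATA3 peak had a fold enrichment of 11.3. At Ifngr2 the Bcl11b peak over the printed promoter (3.61) overlapped a GATA3 peak with its summit 1.4 kb upstream (2.9). Il12rb1 had Bcl11b peaks at its start (2.93) and within the gene (3.87), and the start of Hlx had a Bcl11b peak that overlapped an input peak, with a kept one 1.1 kb upstream (2.01). The peaks came from late WT cells, so no early or KO binding was compared.

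**Figure D4:**
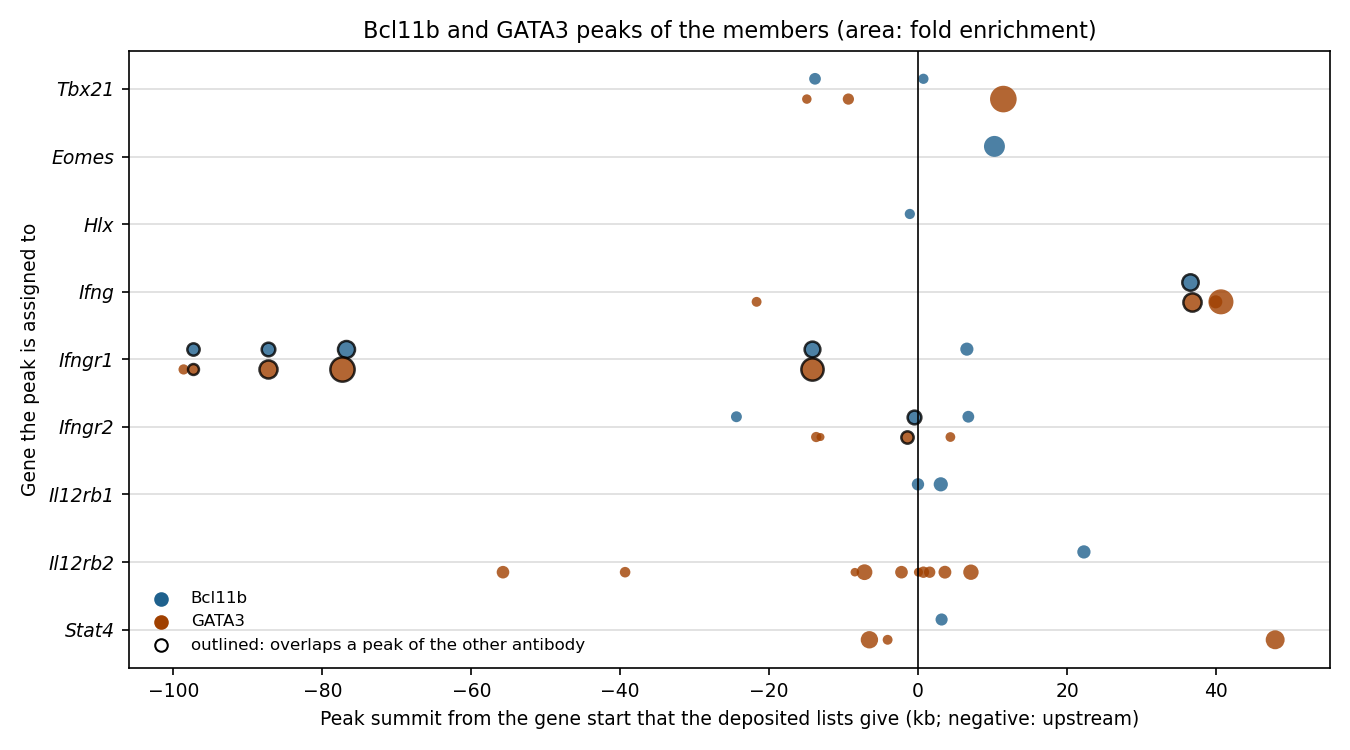
Peak summits assigned to each gene by distance from the start that the deposited lists give (kb; Bcl11b blue and upper, GATA3 brown and lower; area is the authors' fold enrichment; outlined where the 2 antibodies' peaks overlap). Il12rb2 has 10 GATA3 peaks, Eomes, Il12rb1 and Hlx have none, and 4 outlined sites lie upstream of Ifngr1.

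The genes with levels most like those of 4 members were named by Pearson correlation of log2(CPM + 1) over the 16 libraries among 13240 genes. The libraries share 2 experiments and 8 groups, so the values are a description. For Ifng these were Apol7a (0.958), Gm6460 (0.957) and Apol7c (0.955), and for Tbx21 Ube2l6 (0.953), Gm12216 (0.931) and 5430405H02Rik (0.925). For Eomes they included Ms4a6c (0.971) and Serpina3h (0.969), and for Il12rb2 Fam65b (0.963), Ncf1 (0.944) and Vav3 (0.932).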

How the data were processed

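RNA from 16 libraries and chromatin immunoprecipitation from 3 libraries of mouse Th2 cells were used. The deposited RNA tables give raw read counts per RefSeq transcript and RPKM; from the values, the RPKM total is larger than the sum of gene reads. Build mm10 and the tools MACS 1.4.2, Novoalign, Bowtie, TopHat2 2.0.13 and CASAVA 2.18 stand in the submitters' processing notes with no role given. In the peak lists deposited by the authors, a score (the p-value on a negative log10 scale, multiplied by 10), a fold enrichment, a false discovery rate in percent and a count of tags stand beside each peak, per the file headers.

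Each symbol was represented by its transcript with the most reads. Genes that reached an RPKM of 1 in 2 or more of the 8 libraries of an experiment were tested with edgeR 4.0.16 (R 4.3.3; TMM, quasi-likelihood, 4 groups of 2) and Benjamini-Hochberg adjustment over all genes tested. The test was tried on simulated data. Alternatives used DESeq2 1.42.0, limma 3.58.1 on log2 RPKM with a pseudocount of 1 or 0.1, upper-quartile scaling, no filter, a replicate block, 4 libraries only, subtraction of the receptor-transcript rate, the longest transcript, and each library left out; summing early and late Gata3 WT libraries was added after seeing the data. Peaks that overlapped an input peak were set apart. Genes named beside the members are the up to 4 of each list with the smallest p among those called. Some genes that this rule or the likeness ranking would name are not reported here. The members and lists were chosen with earlier results of these data known. Counting limits cover counting error only, and sequenced reads are not independent molecules.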

Additional observations from a re-analysis of the deposited data

Results flagged for a closer look

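The effect of Gata3 loss differed between late and early cultures, by a test of the difference itself, for Eomes (-4.53, late minus early on the log2 scale), Stat4 (-1.77) and Hlx (4.66). Eomes and Stat4 rose in both stages and by less in late cultures. Hlx fell in early cultures, where the 2 KO libraries held 10 reads and 1 read, and did not pass the test in late cultures. The Gata3 transcript itself fell by more in early (-1.54) than in late KO (-0.41), so stage and degree of loss cannot be told apart.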

How the results depend on the processing

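The number of the 9 genes called was 8 in early Gata3 KO (6 to 8 with 1 library left out), 6 in late Gata3 KO (3 to 6), 3 for the stage difference of the Gata3 effect (2 to 6) and 5 between late and early Gata3 KO (4 to 6). In the Bcl11b experiment it was 3 in early KO (1 to 3), 0 in late KO (0 to 0), 0 for the stage difference (0 to 0), 4 between stages in WT (2 to 4) and 4 between stages in KO (2 to 5). The fit on only the 4 libraries compared called 1 gene in early and 1 in late Bcl11b KO. Over all genes it called 456 rises and 560 falls early, and 948 and 634 late. Limma on log2 RPKM called 4 for the Bcl11b stage difference with either pseudocount. Without the filter on low values, 6 passed for the Gata3 stage difference, where 1252 effects were higher and 824 lower over all 16268 genes. The replicate block gave 6 there, adding Ifng (-4.28, adjusted p = 0.0171), Ifngr1 (adjusted p = 0.0491) and Ifngr2 (adjusted p = 0.041), 8 in early and 8 in late Gata3 KO, where it added Hlx (adjusted p = 0.0255) and Ifngr1 (adjusted p = 0.000343), and 2 in early Bcl11b KO, where the Ifngr2 call was lost (adjusted p = 0.0568). Over all genes, the block gave 1410 higher and 977 lower effects for the Gata3 stage difference, against 820 and 474 without it. In late Gata3 KO it gave 1429 rises and 1081 falls, against 895 and 593. In early Bcl11b KO it gave 1065 and 972, against 1194 and 1097. Same-numbered libraries of different groups deviated together with correlations of 0.19 to 0.63 in the Gata3 and -0.08 to 0.37 in the Bcl11b experiment and no label ties a replicate number to a common source. Bcl11b peaks at the 9 genes numbered 8 at a score of at least 100.

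The sign changed under some alternatives, with pseudocounts of 1 and 0.1 in that order. In early Bcl11b KO, Eomes was 0.23 and 0.52 (-1.40 to 0.34 with 1 library left out), Stat4 -0.16 to 0.65 with 1 library left out, and Ifngr1 0.10 and 0.12. In late Bcl11b KO, with 1 library left out, Eomes was -0.18 to 1.64 and Ifngr1 -0.22 to 0.019. For the Bcl11b stage difference, Eomes was -0.16 and -0.18, Ifngr1 -0.37 and -0.41, and Stat4 -1.09 and -1.19, -0.082 without the filter and -0.26 to 0.54 with 1 library left out. Between stages in Bcl11b WT, Il12rb1 was 1.16 and 1.26, 0.072 without the filter and -0.40 to 0.020 with 1 library left out, Il12rb2 0.33 and 0.37, and Ifngr1 -0.021 to 0.41 with 1 library left out. For the Gata3 stage difference, with 1 library left out, Tbx21 was -1.37 to 0.40 and Il12rb1 -0.10 to 0.17 (-0.074 and -0.076 with limma). Between stages in Gata3 KO, Tbx21 was -1.22 to 0.47 with 1 library left out. On deposited RPKM the median of all genes itself moved in comparisons with early Bcl11b WT. Apart from that, the cause of these changes was not tested.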
